A study of Mus musculus with 6 samples.

Results

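The clustered histone genes were chosen by name, as every gene of GENCODE vM1 on the mouse genome build mm9 whose symbol begins with Hist1h, Hist2h, Hist3h or Hist4h. They were 70 of 37310 annotated genes, 67 of them protein coding and 3 pseudogenes (Hist3h2bb-ps, Hist1h2aj and Hist2h3c2). DNA methylation was measured by MeDIP-seq, in which an antibody against methylated cytosine pulls down DNA fragments for sequencing, in primary mouse mesangial cells, the contractile support cells of the kidney glomerulus. Of the 6 samples, 3 were controls and 3 had received TGF-β1 (10 ng/ml, 72 h), and all were grown in 25.5 mM glucose and 20% serum at passages 3 to 6. Mesangial marker genes could not be checked, since MeDIP does not measure expression, and the 3 samples of a group are called biological replicates in the study, without details of the cultures they came from. A peak says that methylated fragments piled up at a place, but not how many of the cells or gene copies carried the methylation, and these cannot be told apart.

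Histone genes of these clusters encode the core histones H2A, H2B, H3 and H4, around which DNA is wound into nucleosomes, and the linker histones H1, which bind the DNA between nucleosomes. Most are short, without introns, and transcribed in S phase, and their mRNAs end in a conserved stem-loop rather than a poly(A) tail. A few members, Hist1h1t, Hist1h2aa and Hist1h2ba, encode histones known from the testis.

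Control samples held 9407103 to 11494356 reads and 81473 to 100449 peaks. TGF-β1 samples held 12634300 to 13291419 reads and 100379 to 105520 peaks. These are the reads left after filtering by the peak caller, called depth below. Every TGF-β1 sample thus held more of them than every control sample. For any count of peaks below, treatment and depth cannot be told apart. A peak was assigned to a gene when its summit, the point of highest coverage, lay in the gene or within 2 kb of it.

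The genes fell into 6 groups by position. On chromosome 13, Hist1 subcluster 1 held 24 genes in 332 kb and Hist1 subcluster 2 held 31 genes in 408 kb, both lengths including the 2 kb flanks. Hist1h2al stood alone on the same chromosome as a separate Hist1 group. Hist2 held 10 genes on chromosome 3, Hist3 held 3 on chromosome 11, and Hist4h4 stood alone on chromosome 6.

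Peaks from the 6 lists were merged into 1 region wherever they shared 1 bp or more, and 16 regions lay at clustered histone genes, numbered R1 to R16 by cluster and position. R11, R13 and R14, each with a peak in 5 samples, are shown as 300 bases around the summit, because 49-base reads from them match the genome once. The 190 bases that lie 61 to 250 bases before Hist1h2ba and before Hist1h1e are shown as examples of low and high CpG content. The first stretch overlaps R12, called in 1 sample, whose summit lay outside it, 47 bp before the gene. Hist1h2ba had a peak in 5 samples, and Hist1h1e had none. Sequences run 5′ to 3′ on the plus strand for regions and on the gene's strand for the upstream stretches, and capitals mark CpG dinucleotides, the sites that can be methylated.
R11, beside Hist1h2ba, chr13:24025248-24025547: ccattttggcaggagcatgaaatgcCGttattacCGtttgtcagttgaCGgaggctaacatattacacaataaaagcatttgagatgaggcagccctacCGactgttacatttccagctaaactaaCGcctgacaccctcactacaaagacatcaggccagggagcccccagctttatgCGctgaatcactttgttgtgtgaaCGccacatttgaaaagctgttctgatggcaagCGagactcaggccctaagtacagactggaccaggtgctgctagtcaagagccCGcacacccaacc
R13, beside Hist1h2al, chr13:51296601-51296900: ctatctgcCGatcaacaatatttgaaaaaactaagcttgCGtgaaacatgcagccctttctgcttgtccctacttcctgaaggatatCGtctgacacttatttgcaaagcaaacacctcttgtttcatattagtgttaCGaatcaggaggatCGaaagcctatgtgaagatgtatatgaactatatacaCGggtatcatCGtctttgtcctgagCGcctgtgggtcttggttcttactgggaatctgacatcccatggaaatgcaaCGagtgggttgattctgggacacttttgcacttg
R14, beside Hist2h4, chr3:96065075-96065374: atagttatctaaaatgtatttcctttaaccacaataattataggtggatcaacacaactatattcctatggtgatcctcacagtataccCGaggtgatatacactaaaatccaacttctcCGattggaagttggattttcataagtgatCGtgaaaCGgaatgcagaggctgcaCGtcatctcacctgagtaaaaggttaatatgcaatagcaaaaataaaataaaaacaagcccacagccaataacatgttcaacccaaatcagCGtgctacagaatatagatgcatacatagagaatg
Upstream of Hist1h2ba, minus strand, chr13:24026086-24026275: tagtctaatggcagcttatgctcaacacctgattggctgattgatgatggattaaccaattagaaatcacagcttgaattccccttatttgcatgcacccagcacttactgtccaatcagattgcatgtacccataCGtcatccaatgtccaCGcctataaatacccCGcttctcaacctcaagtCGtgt
Upstream of Hist1h1e, minus strand, chr13:23714432-23714621: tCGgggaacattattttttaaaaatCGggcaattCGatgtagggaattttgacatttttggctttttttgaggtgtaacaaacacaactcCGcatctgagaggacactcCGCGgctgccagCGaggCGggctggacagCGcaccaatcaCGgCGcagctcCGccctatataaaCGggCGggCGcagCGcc

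The R11 and R13 stretches held 9 CpGs each and the R14 stretch held 6. Upstream of Hist1h2ba there were 4 CpGs, or 2.11 per 100 bp, against 16 CpGs and 8.42 per 100 bp upstream of Hist1h1e. That contrast does not hold for every gene with and without a peak. The same stretch held 2.63 per 100 bp at Hist2h2ac and at Hist1h1t and 3.68 at Hist1h4c, all without a peak. From 250 bp before to 50 bp into the gene the median was 4 with a peak and 3.67 without. Among genes of up to 2 kb the order was the other way, with a median of 3 in the 11 with a peak and 4 in the 50 without.

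Most clustered histone genes had no peak. A peak was found in at least 1 sample at 15 of the 70 genes (21.4%), and in all 6 samples at 2 (2.86%), Hist1h4m and Hist1h2br. Both rest on regions where no 49-base stretch is unique in the genome (R3, and R5 with R6), and without regions under 50% unique the count was 0. Without control sample 2, or without control sample 3, 4 genes had a peak in every remaining sample. The corresponding shares over all 22380 protein-coding genes were 74.6% and 49.4%, but those genes are far longer, with a median span of 15420 bp against 530.5 bp. Among the 61 clustered histone genes of up to 2 kb, 11 (18.0%) had a peak and 1 (1.64%) had one in every sample. Of 3248 other protein-coding genes of up to 2 kb, 936 (28.8%) had a peak and 306 (9.42%) had one in every sample. The limit of 2 kb did not match the lengths, since the median span was 519 bp in the short histone genes and 954 bp in the others. The 9 longer histone genes had a peak in 4 cases (44.4%).

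Of the 54 peaks at clustered histone genes, 19 (35.2%) had their summit inside a gene. A summit lay inside none of the 61 short histone genes, against 502 of the 3248 other short genes (15.5%). The other short genes offer more sequence for a summit, with a median span of 954 bp against 519 bp. Only 4 of the 70 genes held a summit between their annotated ends, and all 4 encode H2B and span more than 2 kb, namely Hist1h2bq, Hist1h2br, Hist1h2be and Hist2h2bb. The nearest approach was at Hist1h2ba, the 1 short gene that any peak overlapped. Other short genes with a CpG observed/expected ratio of at least 0.6 had peaks more often still. Of these, 189 of 399 (47.4%) had a peak and 102 (25.6%) had a summit inside the gene. Of the 70 histone genes of any span, 59 also reached that ratio. Beyond this lower limit the CpG content was not matched, nor was the length, with a median span of 952 bp in the 399 genes.

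**Figure D1:**
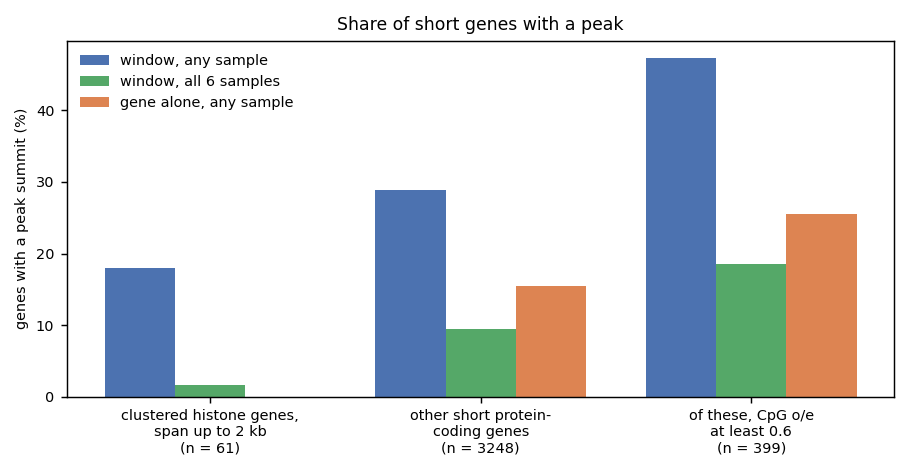
Share of short genes with a peak summit (vertical axis, %) in the gene and 2 kb either side in any sample, in the same window in all 6 samples, and in the gene alone in any sample. The 61 clustered histone genes of up to 2 kb have the lowest bar of each kind, and none for the gene alone, beside 3248 other short protein-coding genes and the 399 of these with a CpG observed/expected ratio of at least 0.6.

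By type of histone, the genes with a peak encoded H2A, H2B or H4. All 6 linker histone genes (Hist1h1a, Hist1h1b, Hist1h1c, Hist1h1d, Hist1h1e and Hist1h1t) and all 12 H3 genes were without a peak in any sample. Peaks were found at 8 of 19 H2B genes, 4 of 20 H2A genes and 3 of 13 H4 genes. Among the 8 H2B genes, Hist1h2bq, Hist1h2br, Hist1h2be and Hist2h2bb span more than 2 kb, so the types also differ in span. Hist1h2bq and Hist1h2br are copies between which reads cannot be placed. H2A and H2B genes often stand as divergent pairs, so a window can reach the neighbour. No test was made between types, since their members share regions. The peaks at Hist1h2ba and Hist1h2aa were the same peaks, as were those at Hist1h2bg, Hist1h2bf and Hist1h2ad.

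By cluster, 5 of 24 genes in Hist1 subcluster 1 had a peak, 6 of 31 in subcluster 2 and 2 of 10 in Hist2. None of the 3 Hist3 genes (Hist3h2ba, Hist3h2bb-ps and Hist3h2a) had one, and the lone genes Hist1h2al and Hist4h4 both did. In Hist2, Hist2h4 and Hist2h2bb had peaks, whereas Hist2h2ab, Hist2h2ac, Hist2h2be, Hist2h3c2, Hist2h2aa2, Hist2h2aa1, Hist2h3c1 and Hist2h3b had none. The sequence between the histone windows was not empty of peaks in the Hist1 subclusters. Regions stood at 7.21 per 100 kb outside the windows of subcluster 1 and 6.74 outside those of subcluster 2. Inside the windows they stood at 10.2 and 3.56, against 6.42 over chromosomes 1 to 19 and X. The value of 10.2 rests on 7 regions, among them R2 to R6. At R2, R3, R5 and R6 no 49-base stretch was unique in the genome, and at R4 14.3% were. That density thus cannot be tied to these windows alone, and the density without R2 to R6 was not computed. Of the other protein-coding genes within the spans of the subclusters, 2 of 3 in subcluster 1 and 6 of 7 in subcluster 2 had a peak.

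**Figure D2:**
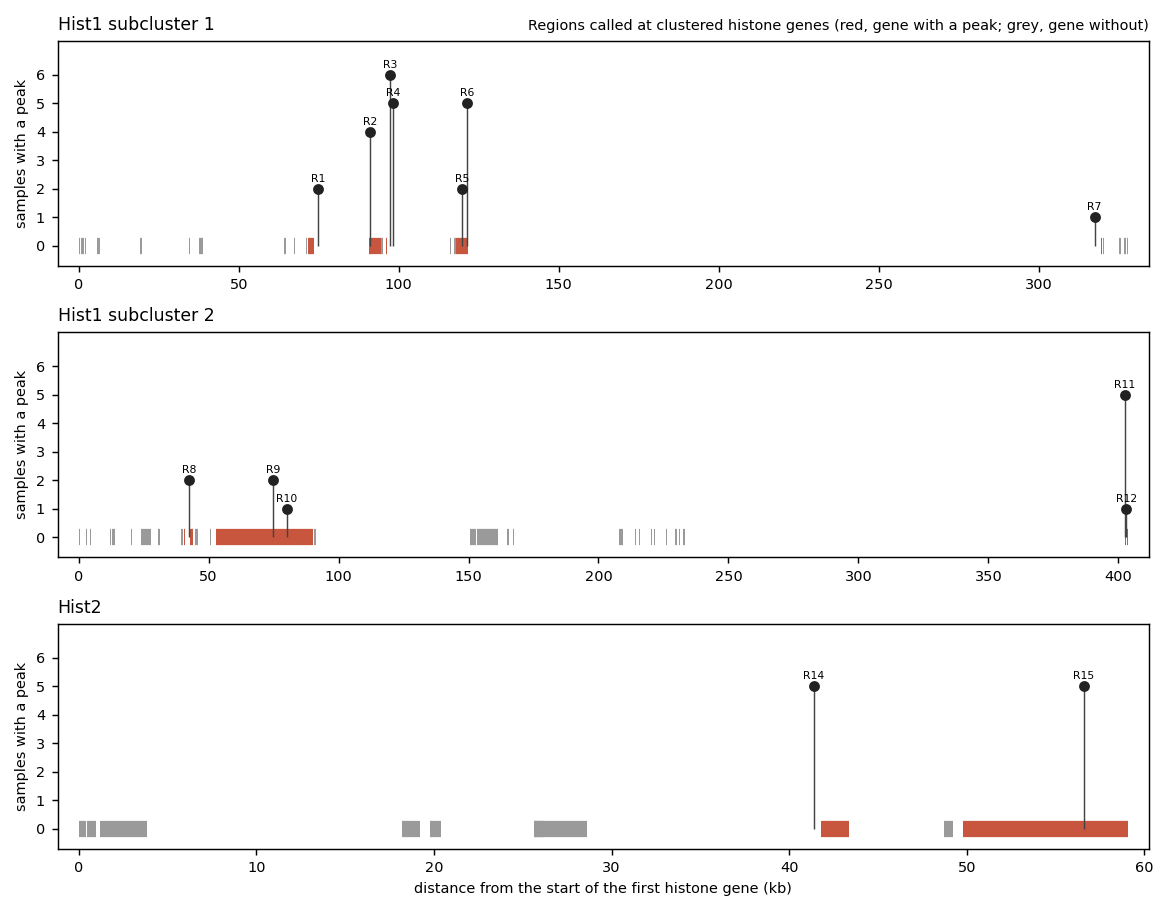
Histone genes (bars at 0) along Hist1 subcluster 1, Hist1 subcluster 2 and Hist2, against distance from the first histone gene in kb, with each region placed at the height of the number of samples with a peak. Genes with a peak are red and those without are grey, and the regions called in 5 or 6 samples (R3, R4, R6, R11, R14 and R15) sit beside few of the genes.

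The regions at histone genes were ordinary in length and CpG content. Their median length was 377 bp and their median CpG density 2.36 per 100 bp, against 380 bp and 2.37 over all 170444 regions. Of the 16, by median summit, 9 lay in the 3′ flank of the nearest histone gene, 4 in introns, 2 in exons and 1 in a 5′ flank. The 9 include R16, whose median summit was 2289 bp beyond Hist4h4. No such split over other genes stands beside these counts. Peaks in 5 or 6 samples made up 8 of the 16 regions (50%), against 36.3% of all regions, and peaks in a single sample made up 3 (18.8%), against 27.3%.

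Values are given below as pileup, the number of extended fragments over the summit, which was not normalised for depth. R3, which lies 840 bp beyond the end of Hist1h4m (an H4 gene), had pileups of 33, 30 and 42 in control samples 1 to 3 and 29, 27 and 41 in TGF-β1 samples 1 to 3. R4, further along the same flank, had no peak in control sample 1, 37 and 52 in control samples 2 and 3, and 36, 34 and 26 after TGF-β1. The value of 52 was the highest at any histone gene, and the ranges of the groups overlapped at R3. Per 1000000 reads they did not: R3 was at 3.20, 3.19 and 3.65 in control samples and 2.27, 2.14 and 3.08 after TGF-β1. On that scale regions in general came out lower after TGF-β1. Over the 41744 regions with a peak in every sample, the median log2 fold change of TGF-β1 over control was -0.096. The share of all regions without overlap on that scale was not computed. At R4 each TGF-β1 pileup was below both listed control pileups. Both regions lie in repeated sequence. The 49-base stretches of R3 had a median of 38 copies in the genome. Those of R4 had a median of 19, and 14.3% of them were unique. Their pileups thus cannot be tied to this flank alone.

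At Hist1h2bq and Hist1h2br, H2B genes with annotated introns, R2 and R6 lay in exons. R2 had pileups of 13 and 18 in control samples 2 and 3 and of 15 and 16 in TGF-β1 samples 1 and 3. R6 had 17 and 18 in control samples 1 and 3 and 14, 19 and 17 after TGF-β1. These regions are copies of the same sequence. The 5736 bp block from Hist1h2bq to Hist1h4m returns in inverted order as Hist1h4n to Hist1h2br with 1 base of difference (99.98% identity), so a read from one copy cannot be placed between them.

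The testis pair Hist1h2ba and Hist1h2aa shared R11, 239 bp beyond the end of Hist1h2ba. Its pileup was 24 and 20 in control samples 1 and 2, with no peak in control sample 3, and 25, 26 and 27 after TGF-β1. The listed TGF-β1 pileups were above both listed control pileups, but per 1000000 reads they were below them, at 1.96, 2.06 and 2.03 against 2.33 and 2.13. As given for R3, the median log2 fold change over regions with a peak in every sample was negative on that scale. A further peak, R12, lay 47 bp before Hist1h2ba between the divergent genes and was called in TGF-β1 sample 3 alone, with a pileup of 15. The third testis gene, Hist1h1t, had no peak.

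Single genes elsewhere showed similar levels. R13, 1306 bp beyond Hist1h2al (H2A), had 18 and 19 in control samples 1 and 3 and 22, 15 and 25 after TGF-β1. R14, 402 bp beyond Hist2h4 (H4), had 24 and 15 in control samples 1 and 3 and 19, 23 and 31 after TGF-β1. R15, in an intron of Hist2h2bb (H2B), had 14 and 30 in control samples 2 and 3 and 17, 23 and 26 after TGF-β1. At these 3 regions each TGF-β1 sample had a peak and 1 control sample did not, and the pileups of the groups overlapped.

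R16, beyond the 3′ end of Hist4h4 (H4), was called in all 6 samples, with 25, 14 and 27 in control samples and 17, 21 and 26 after TGF-β1. Its summit fell within 2 kb of the gene only in control sample 2 and TGF-β1 samples 2 and 3, so Hist4h4 counts as having a peak in 3 samples.

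**Figure D3:**
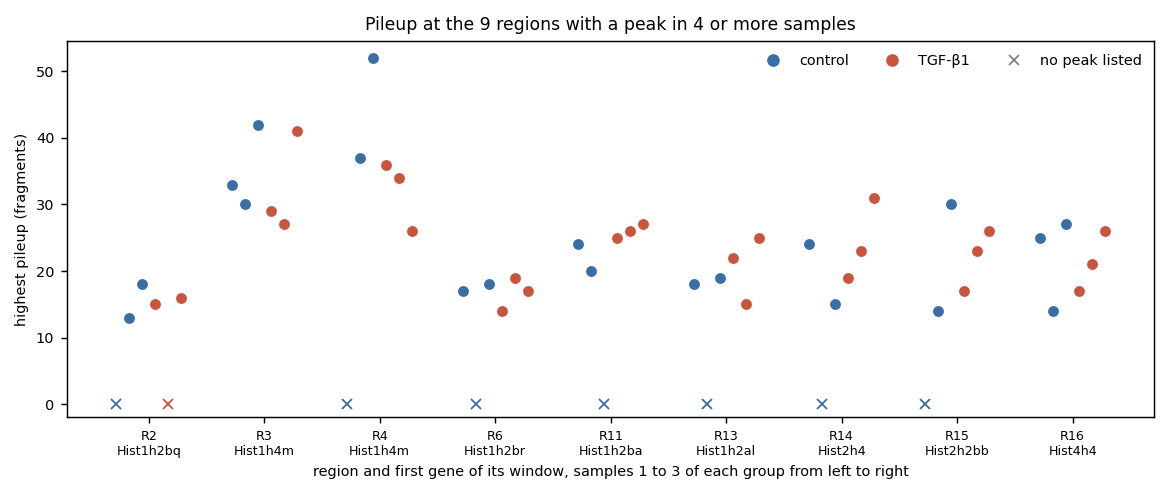
Highest pileup in fragments (vertical axis) in each of the 6 samples at the 9 regions with a peak in 4 or more samples, with control samples in blue, TGF-β1 samples in red and a cross at 0 where no peak was listed. R3 and R4 reach 42 and 52 fragments, and at R13, R14, R15 and R16 the control and TGF-β1 points overlap.

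Whether TGF-β1 changed methylation at these genes was addressed by the number of peaks and by pileup. The number of peaks at clustered histone genes was 7 in each of the 3 control samples and 10, 11 and 12 in TGF-β1 samples 1 to 3. The means were 7 ± 0 and 11 ± 1 (SD, n = 3), and the groups did not overlap. Genes with a peak numbered 8, 7 and 6 in control samples and 10, 12 and 13 after TGF-β1, or 7 ± 1 against 11.7 ± 1.53 (SD, n = 3). Per 1000000 reads, peaks numbered 0.678, 0.744 and 0.609 in control samples and 0.784, 0.871 and 0.903 after TGF-β1. With as many peaks taken from each sample as the shortest list held, those with the highest −log10 q, the numbers were 7, 7 and 7 against 9, 6 and 9, and the groups overlapped. At a fold enrichment of at least 5 they were 7, 6 and 6 against 9, 6 and 10. Genes with a peak did not overlap under these settings, at 8, 7 and 6 against 9, 9 and 12 with equal list lengths and 8, 7 and 6 against 10, 9 and 13 at that fold enrichment.

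Gene by gene, the mean number of peaks was higher after TGF-β1 at 12 of the 15 genes, lower at 1 and equal at 2. Over the 16694 protein-coding genes with a peak it was higher at 55.6%, lower at 22.0% and equal at 22.4%. The 12 genes are not separate, since several share R8, R11 or R12. The groups did not overlap at 1 gene, Hist1h2be, which had no peak in control samples and 1 in each TGF-β1 sample. No gene was lower without overlap. Over all protein-coding genes, 2.89% were higher and 0.259% lower without overlap, and the smallest p of an exact two-sided permutation test of 3 against 3 samples is 0.1. The 3 peaks at Hist1h2be were not at one place. They formed R9, in TGF-β1 samples 1 and 3 with pileups of 15 and 18, and R10, in TGF-β1 sample 2 with 13, both within its 37383 bp annotated span. Without TGF-β1 sample 1, the groups did not overlap at 4 genes (5.71%), all higher, with 3 of them (Hist1h2bg, Hist1h2bf and Hist1h2ad) sharing R8, and 5.46% of protein-coding genes were then higher without overlap. At a fold enrichment of at least 5, with equal list lengths, or without regions under 50% unique, the count was 0.

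Of the 16 regions, 5 were seen in 1 group only. R8, beside Hist1h2bf, had pileups of 19 and 18 in TGF-β1 samples 2 and 3, and with R9, R10 and R12 made 4 regions (25%) found in TGF-β1 samples alone, against 20.2% of all regions. R7, beyond Hist1h2ah, was found in control sample 1 alone, with a pileup of 16, and was the 1 region (6.25%) found in controls alone, against 14.1% of all regions. No region had a peak in all 3 samples of one group and in none of the other, where 0.948% of all regions were found in every TGF-β1 sample and no control sample and 0.233% the reverse.

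**Figure D4:**
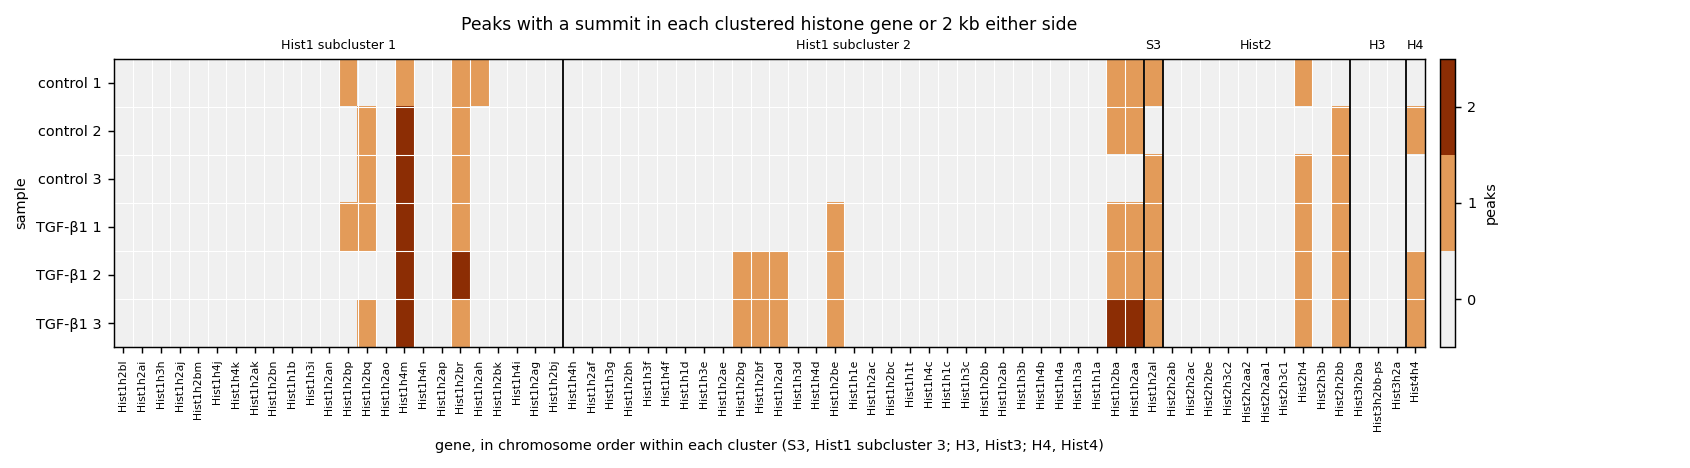
Number of peaks (0, 1 or 2, by colour) with a summit in each of the 70 clustered histone genes or 2 kb either side, with genes across in chromosome order by cluster and the 6 samples down. Filled columns are the 15 genes with a peak, Hist1h4m and Hist1h2br are filled in every sample, and Hist1h2be is filled in the 3 TGF-β1 samples alone.

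Pileup was compared at the 41744 regions that every sample had a peak in, by limma on log2 pileup after the median of each sample was subtracted. Only R3 and R16 of the histone regions entered. The log2 fold change of TGF-β1 over control was -0.35 at R3 (SE 0.193, unadjusted p = 0.0811, adjusted p = 0.999 by limma) and -0.23 at R16 (SE 0.234, unadjusted p = 0.331, adjusted p = 0.999 by limma). Neither passed the thresholds of adjusted p under 0.01 and an absolute log2 fold change over 2, nor an unadjusted p under 0.05. Across all tested regions limma called 0 (0%) at those thresholds and 4.18% at an unadjusted p under 0.05. Without TGF-β1 sample 3, 1 of the histone regions had an unadjusted p under 0.05, as did 3.71% of all regions in that fit. A further fit took all regions with a peak in at least 3 samples, 9 of them histone regions. Absent peaks were set to the lowest pileup listed in that sample. The fit called 0 regions, at histone genes or elsewhere. Of the 9 log2 fold changes 6 were above 0, as were 52.9% of those of all regions so fitted. These signs rest in part on the value given to absent peaks, since R4 came out at 0.10 although its listed TGF-β1 pileups were below the listed control pileups.

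Genes with a peak had less CpG-rich gene sequence in both Hist1 subclusters and in Hist2, but the difference was smaller among short genes. In Hist1 subcluster 1 the median density was 2.97 CpGs per 100 bp of gene in the 5 genes with a peak and 8.92 in the 19 without, and the median spans were 1753 and 483 bp. In Hist2 it was 2.69 in the 2 with a peak and 9.35 in the 8 without, with median spans of 5444 and 578 bp. In Hist1 subcluster 2 it was 6.68 in the 6 with a peak and 7.57 in the 25 without. The median CpG observed/expected ratio in the same order was 0.632 against 0.911, 0.438 against 0.950, and 0.816 against 0.911. Among histone genes of up to 2 kb, the median density was 7.455 in the 11 with a peak and 8.218 in the 50 without. Their median ratios were 0.868 and 0.919. No test was made, as members share regions and sequence. Over all 70 genes the median ratio was 0.776 in the 15 with a peak and 0.911 in the 55 without. It was at least 0.6 in 10 of the 15 and in 49 of the 55. Within 2 kb either side the medians were 0.512 and 0.571. Both sets carried the features of histone genes. The stem-loop core CTTTTCAG, on the gene's strand within 100 bp either side of the gene end, was found in 6 of 15 genes with a peak (40%) and 31 of 55 without (56.4%), against 0.588% of 22283 other protein-coding genes. CCAAT, on either strand in the 250 bp before the gene, was found at 13 of 15 and 45 of 55, and at 34.8% of the other genes. The octamer ATTTGCAT, on either strand of the same stretch, was found at 5 of 15 (33.3%) and 11 of 55 (20%), and at 1.56% of the other genes. By type it was at 9 of 19 H2B genes and 7 of 20 H2A genes, and at no H1, H3 or H4 gene, and the printed stretch before Hist1h2ba holds it.

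How well reads can be placed differed among these genes. Of 100000 random 49-base stretches of the genome, 88.1% occurred once. Within the histone genes the median share of such unique stretches was 50.2% for genes with a peak and 54.1% for those without, and with 2 kb either side it was 82.1% and 87.7%. The pooled medians hide Hist1 subcluster 1, where with the flanks it was 4.85% for genes with a peak and 85.5% for those without. In Hist1 subcluster 2 it was 87.8% and 90.1%, and in Hist2 85.6% and 72.1%. Of the 16 regions, 7 lay in sequence of which under 50% was unique (R2, R3, R4, R5, R6, R10 and R16). At R2, R3, R5 and R6 no 49-base stretch was unique, and those of R3 had a median of 38 copies in the genome. The methods state that reads mapping to a single place were kept, yet peaks were listed at these regions, and the reason was not tested. Leaving the 7 regions out, 11 genes had a peak in any sample and 0 in all 6. The peaks then numbered 5, 2 and 3 in control samples and 6, 5 and 7 after TGF-β1. Restricted to short histone genes that were at least 90% unique, 0 of 8 held a summit inside the gene, and at 50% it was 0 of 33.

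**Figure D5:**
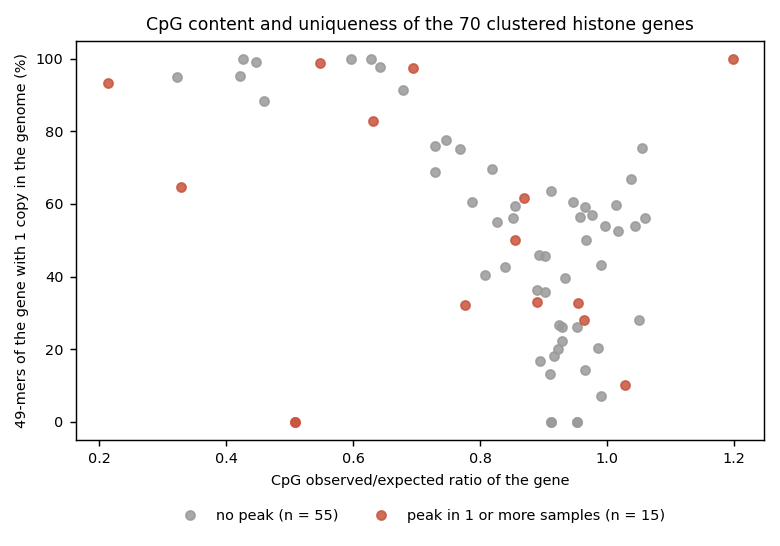
CpG observed/expected ratio of each of the 70 clustered histone genes (horizontal axis) against the share of its 49-base stretches that occur once in the genome (vertical axis, %), with genes with a peak in red (n = 15) and without in grey (n = 55). Red and grey points overlap across both axes.

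Histone genes outside the clusters and genes that serve histones are longer, and their shares stand beside 74.6% of all protein-coding genes with a peak in any sample and 49.4% in all 6. Of 15 histone genes outside the clusters, which include the replacement histones made outside S phase, 11 (73.3%) had a peak and 7 (46.7%) had one in all 6 samples, among them H3f3a, H2afj, H2afy and H2afy2, while H2afz, H2afx, H3f3b and H1fx had none. All 12 annotated genes for histone mRNA processing and transcription had a peak in some sample, 9 of them in all 6. The same held for all 14 histone chaperone genes, 11 of them in all 6, such as Chaf1a, Hjurp, Npm1 and Atrx. The median spans of the 3 lists were 2436, 28200 and 23580 bp, against 530.5 bp for the clustered histone genes.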

How the data were processed

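MeDIP-seq peak lists of 6 samples of primary mouse mesangial cells were used, 3 control and 3 TGF-β1, grouped by the sample labels. Per the methods and file headers, the authors mapped 49-base reads to mm9 with BWA, kept uniquely mapped reads and called peaks in each sample with MACS2 2.1.0.20150731 at a q cutoff of 0.01. The deposited pileup is a signal in extended fragments, not normalised for depth. The deposited fold enrichment is a ratio to local background. The deposited p- and q-values are −log10 values, and regions under the cutoff are not listed.

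Peaks were joined where they overlapped by 1 bp, checked with bedtools 2.31.1. Genes were those of GENCODE vM1, on NCBIM37 (the mm9 assembly). Copies of 49-base stretches were counted on both strands of the genome. Hist1 genes over 200 kb apart were put in separate subclusters. Calculations used Python 3.11.15 and limma 3.58.1 in R 4.3.3, on log2 pileup, with a trend and Benjamini-Hochberg adjustment, tested on simulated data. The read-count test of the study could not be repeated from peak lists. Regions with a peak in at least 4 samples, their genes, all H1, Hist2, Hist3 and Hist4 genes and the testis histones were named, and further genes were named after their values were seen. Members and lists were chosen with earlier results of these data known. The samples held 9407103 to 13291419 reads, which limits how weak a peak could be called. The study calls the samples of a group biological replicates, and the p-values measure the spread between them. Alternatives covered the flank, the overlap rule, thresholds, equal list lengths, depth, replicates and, added after seeing the data, uniqueness and span.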

Additional observations from a re-analysis of the deposited data

How the results depend on the processing

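The difference of 4 peaks between the groups was above 0 under all 16 alternatives. It was 1.67 in the genes alone, 6.33 with 5 kb flanks, 2 at a fold enrichment of at least 5, 1 with equal list lengths, 2.67 without regions under 50% unique and 0.176 per 1000000 reads. It was 3.5 to 4.5 with 1 sample left out. The difference of 4.67 genes with a peak was 1.33, 6.33 and 3 for the genes alone, 5 kb flanks and equal list lengths. Genes with a peak in any sample numbered 4 in the genes alone and 24 with 5 kb flanks. Genes with a peak in all samples numbered 1 in the genes alone, 9 with 5 kb flanks, 1 at a fold enrichment of at least 5, 1 with equal lengths, 0 without regions under 50% unique, 1 among genes of up to 2 kb, and 2 to 4 with 1 sample left out, the 4 arising without control sample 2 or 3. The gene without overlap, Hist1h2be, was lost (0 genes) at a fold enrichment of at least 5, with equal lengths and without regions under 50% unique. That count was 1 to 4 with 1 sample left out, the 4 arising without TGF-β1 sample 1. No histone region passed the limma thresholds under any of 14 alternatives. No other region of the genome passed them either, so this count shows nothing particular to histone genes. At an unadjusted p under 0.05 there was 1 after division by reads (6.23% of all regions), which moved the median of all regions by -0.09 on the log2 scale, and 0 to 1 with 1 sample left out. The uniqueness and span alternatives were chosen after seeing the data. The cause was not tested.

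Deviations of same-numbered samples correlated at -0.0464, 0.0432 and -0.130. The labels and the study do not say whether same-numbered samples were handled together, and these correlations cannot decide it. With the replicate block the differences were 4 peaks and 4.67 genes (exact sign-flip p = 0.25 for each, the smallest possible). With that block limma called 0 histone regions and 0 of all 41744 regions.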
